A study of Mus musculus with 18 samples.

Results

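The genes described here are 10 glycosyltransferases that build the sugar chains of colonic mucins: Galnt3, Galnt4, Galnt12, C1galt1, Gcnt3, B3gnt6, Fut2, Fut9, St6galnac1 and B4galnt2. They were taken by symbol from the 55453 gene names in the count tables, and all 10 were present in every library. Expression was measured by RNA-Seq in 18 libraries of colonic epithelium from female Swiss Webster mice, an outbred stock. Every mouse was given the carcinogen azoxymethane (AOM) at 7 weeks of age and then, from 9 weeks, 4 cycles of 2% dextran sulfate sodium (DSS), which injures the colon lining. At 11 weeks they were moved from chow with 2 mg/kg folic acid (FA) to chow with 8 or 0 mg/kg for 16 weeks, and tissue was taken at 27 weeks. The groups were polypoid dysplasia from mice on 8 mg (8P, n = 5) and on 0 mg (0P, n = 4), and non-dysplastic epithelium from mice on 8 mg (8ND, n = 5) and on 0 mg (0ND, n = 4). A laser was used to cut the epithelial areas out of fixed and embedded colon sections, the non-dysplastic groups are themselves colitic tissue, and no untreated colon was compared. Nothing in the labels says that libraries came from separate mice, so the p-values measure the spread between libraries, which may be partly technical.

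Mucins carry most of their mass as O-linked sugar chains, which give the mucus gel its bulk and shield the protein from bacterial enzymes. GalNAc transferases (Galnt genes) start each chain by placing N-acetylgalactosamine on a serine or threonine. C1galt1 extends that sugar with galactose to core 1, B3gnt6 extends it with N-acetylglucosamine to core 3, and Gcnt3 branches these to core 2 and core 4. Fucosyl-, sialyl- and GalNAc-transferases such as Fut2, Fut9, St6galnac1 and B4galnt2 then cap the chains with blood-group-like sugars.

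Libraries held between 3500947 and 17048524 gene counts, and all 10 genes passed the filter on low counts. Values of single genes below are CPM (a gene's share of the counts, scaled to a fixed library total) adjusted by TMM, a normalization that aligns library compositions. Sums over a list of genes are CPM without TMM. Differences are log2 fold changes with a standard error (SE) from edgeR's quasi-likelihood test, called at a Benjamini-Hochberg adjusted p under 0.05 over 20787 genes. The 9 epithelium markers had summed levels of 3126 to 3796 CPM in 8P, 3368 to 4739 CPM in 0P, 3653 to 5345 CPM in 8ND and 4053 to 5328 CPM in 0ND, and none was at 0. In bulk libraries fewer cells of a type and less RNA per cell cannot be told apart.

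Levels were compared between genes only per kilobase of annotated exon. In 8ND the order was led by B4galnt2 at 69.8 ± 20.2 CPM per kb and St6galnac1 at 67.9 ± 49.4 CPM per kb (SD, n = 5), whose spreads overlapped, followed by C1galt1 at 50.1 ± 4.52 CPM per kb. C1galt1 headed the order in 8P, at 37.3 ± 7.55 CPM per kb (SD, n = 5), and in 0P, at 30.2 ± 4.94 CPM per kb (SD, n = 4). In 0ND St6galnac1, C1galt1 and B4galnt2 stood at 47.1 ± 26.6, 37.9 ± 5.04 and 37.2 ± 27.1 CPM per kb (SD, n = 4) and were not separated by their spreads. Fut9 was the ninth and B3gnt6 the lowest in all 4 groups. B3gnt6 reached 0.518 ± 0.562 CPM per kb in 8P, against 2.83 ± 2.06 CPM per kb in 8ND (SD, n = 5 each).

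**Figure D1:**
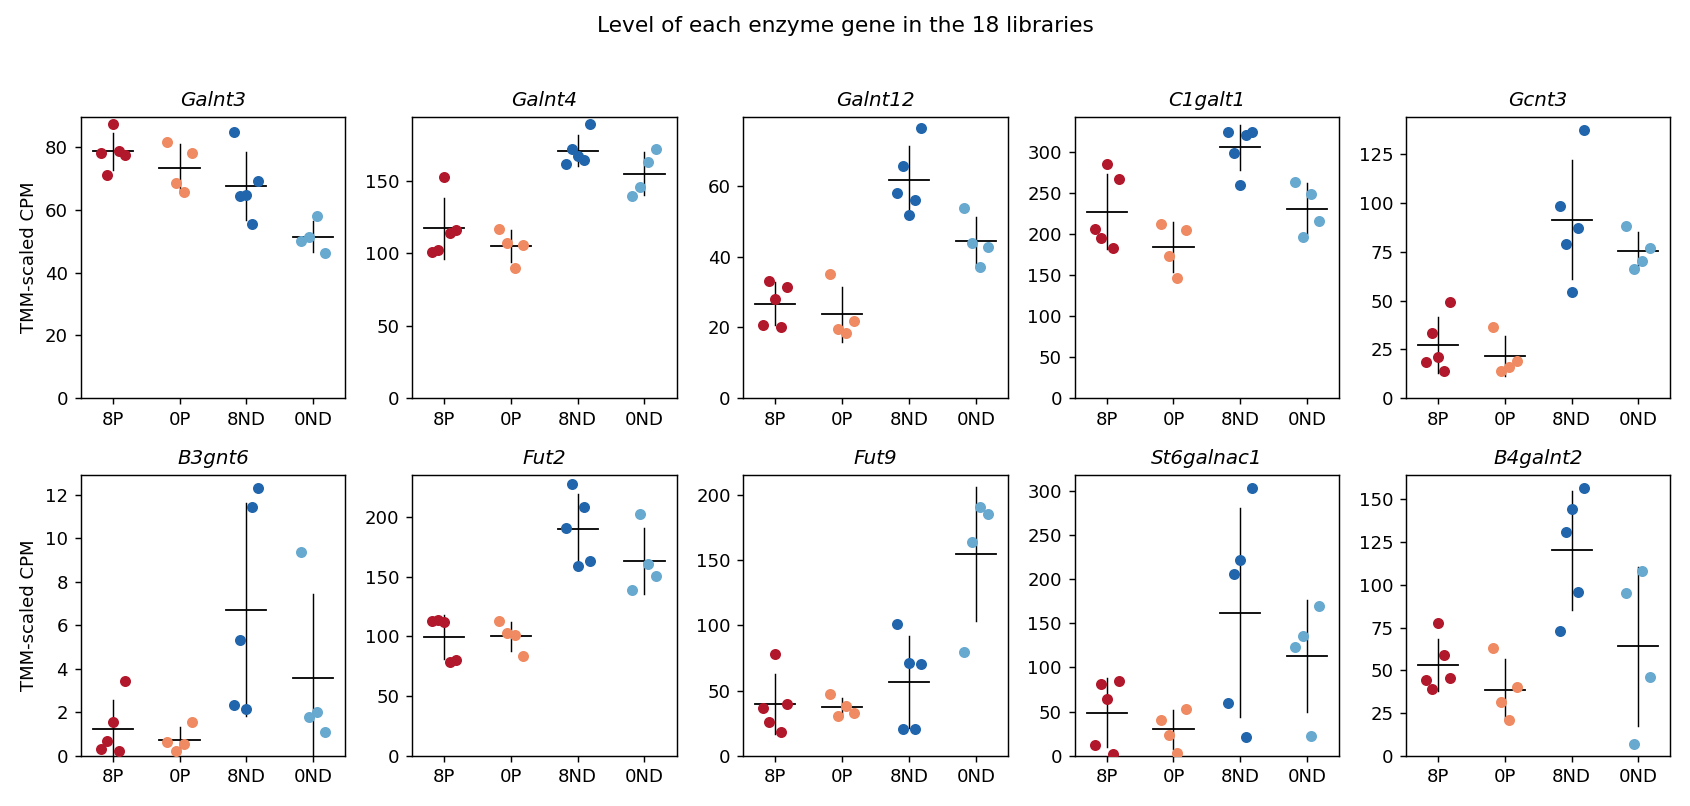
TMM-scaled CPM (vertical axes, starting at 0) of the 10 genes in each library of 8P, 0P, 8ND and 0ND. Points are libraries, horizontal lines are group means and vertical lines ± 1 SD, drawn no lower than 0. Galnt12 and Gcnt3 in P lie below every ND library, and St6galnac1 spreads from 2.32 to 304 CPM.

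The comparison of dysplasia with non-dysplastic epithelium moved most of these genes, and nearly all of them downwards. In 0P vs 0ND, Fut2, Fut9, Gcnt3, Galnt4 and Galnt12 fell and Galnt3 rose, so that 6 of 10 were called, against 31.6% of all tested genes (15.9% higher and 15.7% lower). In 8P vs 8ND, Fut2, B3gnt6, C1galt1, Gcnt3, Galnt4 and Galnt12 fell and none rose, again 6 of 10, against 28.2% of all tested genes (13.9% higher and 14.3% lower). The median log2 fold change of the 10 was −0.82 in 0P vs 0ND and −1.06 in 8P vs 8ND, where the medians of all tested genes were −0.03 and 0.0019. A change of at least 2-fold accompanied the call for 2 genes in 0P vs 0ND (15.9% of all genes) and for 3 in 8P vs 8ND (12.4%). The CPM of the P and ND libraries did not overlap for 6 genes in 0P vs 0ND (32.3% of all genes) and for 4, all lower, in 8P vs 8ND (17.2% of all genes, 8.94% lower). Fut2, Gcnt3, Galnt4 and Galnt12 were called in both comparisons, which share no library. The 10 genes were chosen with earlier results of these data known, so these shares describe the list and do not test it.

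**Figure D2:**
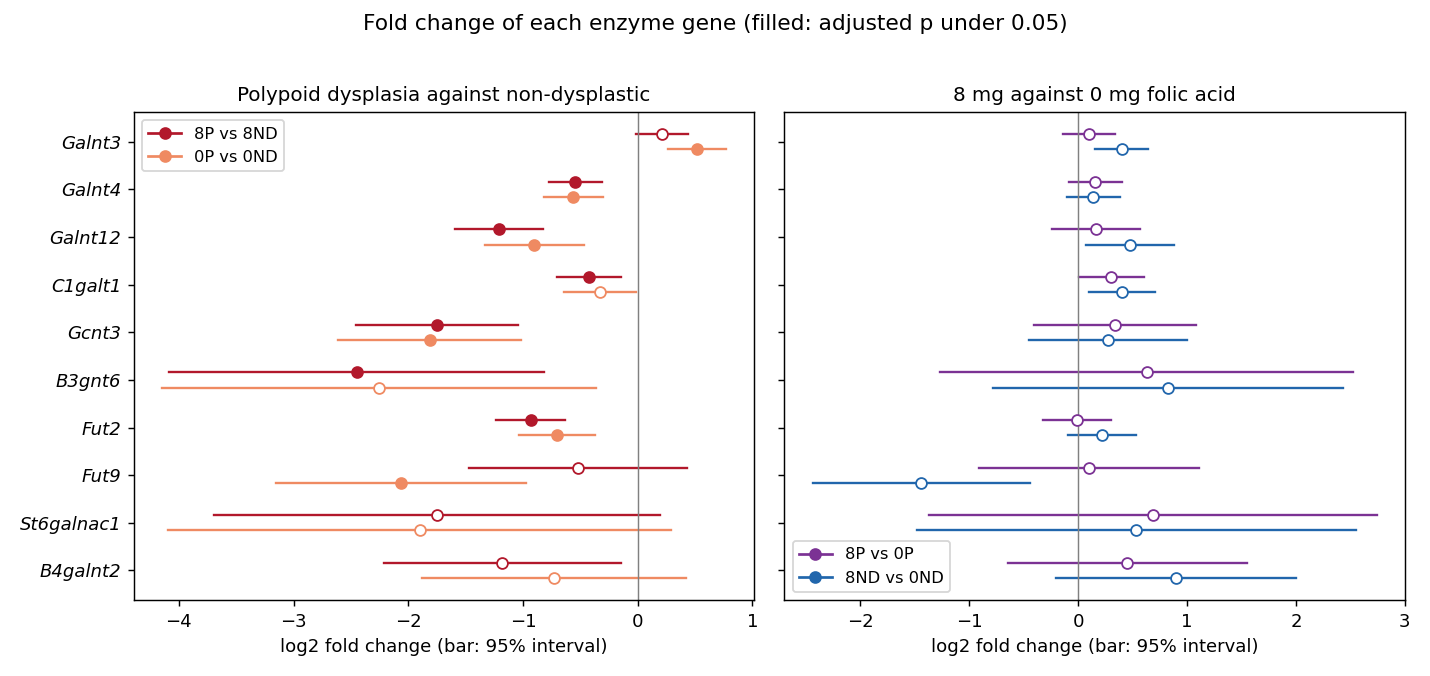
Log2 fold change (horizontal axes) of the 10 genes with its 95% interval, for 8P vs 8ND and 0P vs 0ND on the left and for 8P vs 0P and 8ND vs 0ND on the right. Filled points had an edgeR adjusted p under 0.05. In each dysplasia comparison 6 points are filled, in the dose comparisons none.

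Of the 3 chain-starting enzymes Galnt12 showed the largest fall. GALNT12 is most abundant in the digestive tract in humans, where inherited variants have been linked to colorectal cancer. Galnt12 (mm10, chr4:47091909-47123070, plus strand) had 20.6, 33.2, 28.1, 20.1 and 31.6 CPM in 8P, against 58.2, 65.8, 51.7, 56.2 and 76.5 CPM in 8ND. In mice without FA it had 35.2, 19.6, 18.3 and 21.9 CPM in 0P, against 53.8, 44.0, 37.1 and 42.9 CPM in 0ND. All P libraries were below all ND libraries of the same dose. The log2 fold change was −1.21 (SE 0.18, edgeR adjusted p = 9.2e-05) in 8P vs 8ND, or 2.32-fold lower, and −0.90 (SE 0.21, edgeR adjusted p = 0.0023) in 0P vs 0ND, or 1.87-fold lower.

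Galnt4 adds further GalNAc to mucin stretches that already carry some. Its levels were 101, 102, 153, 114 and 116 CPM in 8P, against 161, 172, 167, 164 and 189 CPM in 8ND. They were 117, 107, 89.7 and 106 CPM in 0P, against 139.5, 145, 163 and 172 CPM in 0ND. The groups did not overlap at either dose, and the fall was the smallest of the 4 genes called in both comparisons, at −0.54 (SE 0.11, edgeR adjusted p = 0.0012) in 8P vs 8ND and −0.56 (SE 0.12, edgeR adjusted p = 0.0017) in 0P vs 0ND on the log2 scale. Galnt4 (chr10:99108159-99113247, plus strand) is a single exon lying within Poc1b on the same strand, and 420 of its 5089 exonic bases are shared with that gene.

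Galnt3 went the other way. It is a broadly acting starter enzyme, known above all for protecting the phosphate hormone FGF23 from cleavage. Galnt3 (chr2:66082766-66124994, minus strand) had 81.6, 68.5, 65.5 and 78.2 CPM in 0P, against 50.1, 51.3, 58.1 and 46.2 CPM in 0ND. The lowest 0P library was above the highest 0ND library, and the log2 fold change was 0.52 (SE 0.12, edgeR adjusted p = 0.0029). In 8P it had 78.1, 71.2, 87.5, 78.9 and 77.5 CPM, against 84.8, 64.5, 64.6, 55.4 and 69.2 CPM in 8ND. There 8ND 1 lay within the 8P range, and the difference of 0.21 (SE 0.11, edgeR adjusted p = 0.15) did not pass, whereas without 8ND 1 it was 0.31 with an edgeR adjusted p of 0.034. The interaction, which tests whether the dysplasia effect differs between doses, was −0.30 for Galnt3 (SE 0.16, edgeR adjusted p = 0.53).

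Gcnt3, the branching enzyme of core 2 and core 4 chains in mucus-secreting epithelia, had the largest fall among genes called at both doses. Gcnt3 (chr9:70031496-70038088, minus strand) had 18.5, 33.4, 21.3, 13.9 and 49.3 CPM in 8P, against 98.7, 79.1, 54.6, 87.3 and 138 CPM in 8ND. It had 36.7, 14.0, 16.0 and 19.0 CPM in 0P, against 88.1, 66.3, 70.5 and 77.1 CPM in 0ND. No P library reached an ND library of the same dose, and 8P 5 and 0P 1 were the highest of their groups. The log2 fold change was −1.75 (SE 0.33, edgeR adjusted p = 0.00094) in 8P vs 8ND, or 3.37-fold lower, and −1.82 (SE 0.38, edgeR adjusted p = 0.0014) in 0P vs 0ND, or 3.52-fold lower.

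The synthases that compete for the first GalNAc moved by different amounts. C1galt1, whose loss from the gut epithelium of mice leads to spontaneous colitis, lies at chr6:7844842-7875687 on the plus strand. It had 206, 195, 285, 182 and 267 CPM in 8P, against 324, 299, 259.6, 319.9 and 324 CPM in 8ND, so that 8P 3 and 8P 5 exceeded 8ND 3. The log2 fold change was −0.43 (SE 0.13, edgeR adjusted p = 0.023), and the call was lost when 8P 1, 8P 2, 8P 4 or 8ND 5 was left out (adjusted p between 0.050 and 0.065). In mice without FA C1galt1 had 212, 173, 147 and 205 CPM in 0P, against 263, 196, 248 and 216 CPM in 0ND. These ranges overlapped, and the value of −0.33 (SE 0.15, edgeR adjusted p = 0.11) did not pass.

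B3gnt6, the core 3 synthase, is a colon-enriched enzyme whose absence in mice worsens DSS colitis. Its reads were few, 3 to 37 counts per library in 8P and 3 to 25 in 0P, against 17 to 120 in 8ND and 10 to 147 in 0ND. The gene (chr7:98192417-98199481, minus strand) had 0.318, 0.651, 1.54, 0.210 and 3.42 CPM in 8P, against 2.34, 5.29, 2.14, 11.4 and 12.3 CPM in 8ND. All 8P libraries but 8P 5 were below every 8ND library, and the log2 fold change was −2.45 (SE 0.78, edgeR adjusted p = 0.025). That call was lost without 8ND 4, 8ND 5, 8P 1 or 8P 4 (adjusted p between 0.054 and 0.072). B3gnt6 had 0.614, 0.230, 0.547 and 1.55 CPM in 0P, against 9.34, 1.76, 2.01 and 1.08 CPM in 0ND. Here 0ND 1 stood far above the others and 0P 4 exceeded 0ND 4, and the value of −2.26 (SE 0.90, edgeR adjusted p = 0.065) did not pass. Without 0ND 1 the log2 fold change was −1.05 (edgeR adjusted p = 0.44).

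The balance of core 3 to core 1 synthase was read within each library as log2 of B3gnt6 over C1galt1 counts, a ratio that needs no library scaling. It averaged −8.23 ± 1.40 in 8P (SD, n = 5), −8.27 ± 1.04 in 0P (n = 4), −5.87 ± 1.13 in 8ND (n = 5) and −6.55 ± 1.21 in 0ND (n = 4). The single libraries ran from −9.76 to −6.29 in 8P, against −7.11 to −4.72 in 8ND, and from −9.55 to −7.04 in 0P, against −7.64 to −4.82 in 0ND. The P and ND ranges therefore overlapped at both doses, by way of 8P 5, 8ND 1 and 8ND 3 on 8 mg and of 0P 4 and 0ND 4 on 0 mg. No test was made of this ratio.

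**Figure D3:**
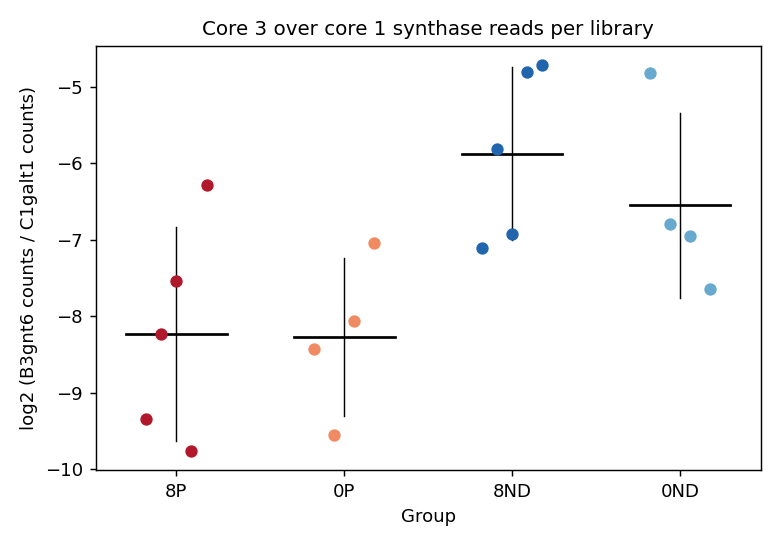
Log2 of B3gnt6 over C1galt1 counts (vertical axis) in each library of 8P, 0P, 8ND and 0ND. Horizontal lines are group means and vertical lines ± 1 SD; the means are −8.23, −8.27, −5.87 and −6.55, and the ranges of P and ND overlap.

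Fut2 makes the H antigen by adding fucose in alpha-1,2 linkage, the sugar that gut bacteria can harvest and that sets secretor status in humans. Fut2 (chr7:45648591-45666394, minus strand) had 112, 114, 112, 78.3 and 79.8 CPM in 8P, against 190.4, 228, 159, 208 and 163 CPM in 8ND. It had 113, 103, 101 and 83.6 CPM in 0P, against 139, 203, 161 and 150.3 CPM in 0ND. P and ND libraries were apart at both doses, with a log2 fold change of −0.93 (SE 0.14, edgeR adjusted p = 9e-05) in 8P vs 8ND and of −0.71 (SE 0.16, edgeR adjusted p = 0.002) in 0P vs 0ND. Between the doses the libraries overlapped, and the 95% interval of the log2 difference in Fut2 was −0.32 to 0.30 in 8P vs 0P and −0.10 to 0.53 in 8ND vs 0ND.

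Fut9 adds fucose in alpha-1,3 linkage and makes the Lewis x structure. The study singled this gene out from these same libraries, so its values are not independent evidence for a dose effect. The ND libraries also enter the dysplasia comparisons and the interaction, so the same limit holds for those values of Fut9. Fut9 (chr4:25609332-25800244, minus strand) had 47.2, 30.4, 38.3 and 32.5 CPM in 0P, against 79.9, 164, 191 and 185 CPM in 0ND. The 0P libraries were all lower, by −2.06 on the log2 scale (SE 0.51, edgeR adjusted p = 0.0058), or 4.17-fold. On 8 mg it had 36.3, 25.8, 77.9, 18.3 and 39.8 CPM in 8P, against 101, 20.5, 71.2, 20.8 and 70.3 CPM in 8ND. These ranges overlapped almost throughout, and the value was −0.52 (SE 0.45, edgeR adjusted p = 0.42). The effects of dysplasia at the 2 doses differed by an interaction of 1.54 (SE 0.67, unadjusted p = 0.036, edgeR adjusted p = 0.45), which did not pass. Between the non-dysplastic groups Fut9 averaged 56.7 ± 35.2 CPM in 8ND and 155 ± 51.3 CPM in 0ND (SD, n = 5 and 4), with only 0ND 1 below the highest 8ND library. The 8ND vs 0ND value of −1.44 (SE 0.47, 95% interval −2.44 to −0.44, edgeR adjusted p = 0.27) did not pass over all genes.

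The level of Fut9 in non-dysplastic epithelium followed that of distal-colon position genes. Hoxb13, Hoxa13 and 4 Hoxd genes mark the distal end of the gut, and their summed level was 209, 99.0, 164, 102 and 152 CPM in 8ND, against 155, 234, 364 and 305 CPM in 0ND. Within each of these groups the libraries ranked in the same order by Fut9 as by the Hox sum. Over the 9 ND libraries Pearson's r between the log2 values was 0.955 (exact permutation p = 2.5e-05, adjusted p = 0.00099) and Spearman's rho was 0.983 (exact permutation p = 5e-05, adjusted p = 0.002). Fut9 and the Hox sum both averaged lower in 8ND than in 0ND, and the permutations exchanged libraries across the doses. These pooled values therefore also carry the dose difference. Without the 2 libraries farthest from the median Hox sum, 0ND 3 and 0ND 4, r was 0.979. The relation was noticed in these data and tested on them as 1 of 40, for 10 genes, 2 marker sums and both tissues, and it was the only relation of the 40 to pass after adjustment. In the 9 P libraries the Hox sum and Fut9 gave an r of −0.365 (exact permutation p = 0.34). None of the 6 Hox genes was called in 8ND vs 0ND, where their median log2 fold change was −1.51, and their part in the Fut9 difference was not tested.

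**Figure D4:**
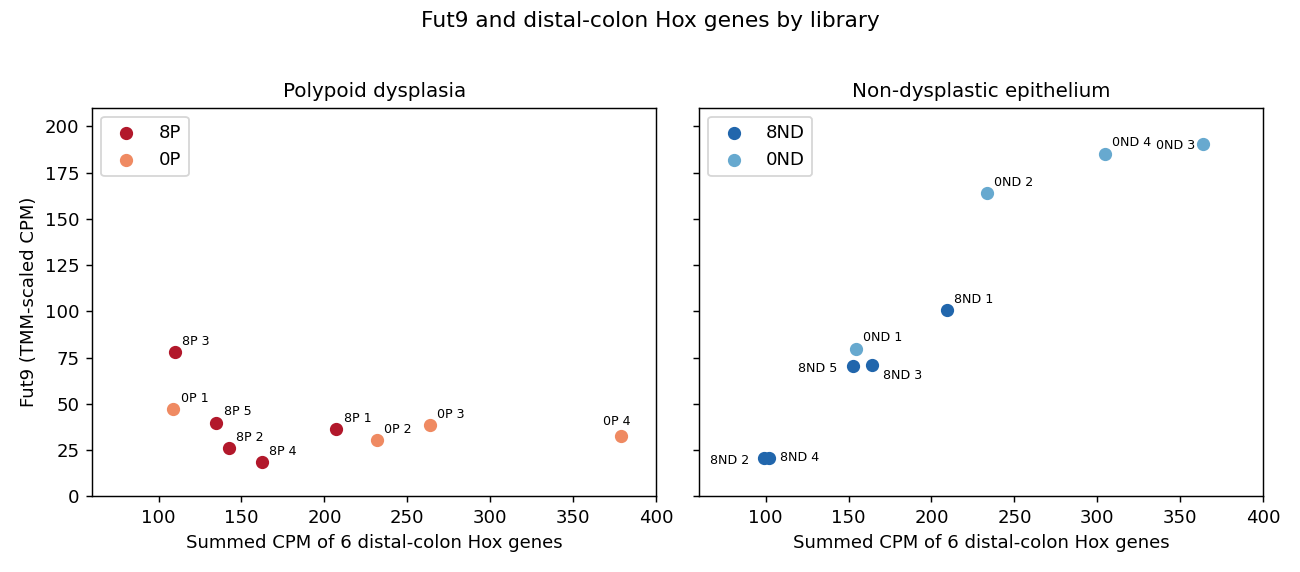
Fut9 (vertical axis, TMM-scaled CPM) against the summed CPM of 6 distal-colon Hox genes (horizontal axis) in each library, with 8P and 0P on the left and 8ND and 0ND on the right. In ND the points climb together, r = 0.955 over 9 libraries pooled from both doses, and 8ND 2 and 8ND 4 lie lowest on both axes.

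St6galnac1, which caps the first GalNAc with sialic acid to make sialyl-Tn, was the most variable of the genes. St6galnac1 (chr11:116765025-116775507, minus strand) had 11.9, 80.9, 64.2, 2.32 and 84.4 CPM in 8P, against 59.3, 206, 222, 21.3 and 304 CPM in 8ND. It had 39.9, 23.1, 2.87 and 53.1 CPM in 0P, against 124, 135, 21.8 and 169.7 CPM in 0ND. The lowest library within each group was 8P 4, 0P 3, 8ND 4 and 0ND 3, P and ND overlapped at both doses, and the whole range was 131-fold. The log2 fold changes of −1.75 (SE 0.91, edgeR adjusted p = 0.17) in 8P vs 8ND and of −1.90 (SE 1.03, edgeR adjusted p = 0.18) in 0P vs 0ND did not pass, with 95% intervals of −3.69 to 0.19 and of −4.09 to 0.29. A fit that treated equal replicate numbers as pairs called both falls, but the labels do not say that the numbers pair libraries.

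B4galnt2 places the terminal GalNAc of the Sda antigen, the sugar that makes mouse gut epithelium bind Dolichos lectin. B4galnt2 (chr11:95865943-95914891, minus strand) had 44.6, 39.2, 77.4, 58.9 and 45.7 CPM in 8P, against 72.9, 131, 144, 96.1 and 157 CPM in 8ND. The highest 8P library passed the lowest 8ND library, and the value of −1.18 (SE 0.49, edgeR adjusted p = 0.083) did not pass with all 18 libraries in the fit, though it did with only 8P and 8ND fitted (edgeR adjusted p = 0.003). B4galnt2 had 62.8, 31.2, 20.8 and 40.2 CPM in 0P, against 95.3, 6.68, 108 and 46.1 CPM in 0ND. The lowest of all 18 libraries was thus 0ND 2, with 38 counts. The log2 fold change in 0P vs 0ND was −0.73 (SE 0.54, edgeR adjusted p = 0.34), and without 0ND 2 it was −1.10 (edgeR adjusted p = 0.032). An antisense gene model, Gm11534, shares 263 of the 1722 exonic bases of B4galnt2.

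The RefSeq promoter table (GRCm38.p6) held windows for 3 of the 10 genes, C1galt1, Galnt3 and B4galnt2, from 250 bases before to 50 after a start site. Those of C1galt1 and Galnt3 lay mostly or wholly in annotated exons, and the part of the B4galnt2 window upstream of all its exons is shown because this gene led the order per kilobase in 8ND and spread widely in 0ND. It covers chr11:95914892-95915121, is written 5′ to 3′ on the minus strand, and has its 16 CpG dinucleotides, the sites of DNA methylation, in capitals:
B4galnt2 upstream: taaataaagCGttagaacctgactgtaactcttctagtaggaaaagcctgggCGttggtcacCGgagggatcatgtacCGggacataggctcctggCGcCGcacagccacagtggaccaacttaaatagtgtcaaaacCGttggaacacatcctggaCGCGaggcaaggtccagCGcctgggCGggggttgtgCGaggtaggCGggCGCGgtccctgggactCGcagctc
The whole B4galnt2 window held 21 CpG, that of Galnt3 41 and that of C1galt1 52, and the median over all 32851 windows was 7. CCCGGG, the site that the study's methylation assay reads, occurred 3 times in the C1galt1 window and in neither of the others, and 13.5% of all windows held it. CAGCTG, an E-box sequence bound by helix-loop-helix factors, occurred once in the C1galt1 window and is held by 16.3% of all windows. CTTTGAT of TCF/LEF, TTTATNG of CDX2 and CAAAGTCCA of HNF4 were absent from both strands of the 3 windows, and 3.73%, 10.9% and 0.475% of all windows hold them. Methylation itself was not analysed here.

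The dose of FA moved none of the 10 genes past the threshold. In 8P vs 0P, 0 of 10 were called by edgeR, as were 0% of all tested genes, and 1 of 10 had an unadjusted p under 0.05, as did 10.1% of all genes. In 8ND vs 0ND, 0 of 10 were called, against 0.0481% of all tested genes, and 4 of 10 had an unadjusted p under 0.05, as did 9.91% of all genes. DESeq2 and limma-voom called 0 of 10 as well. The medians of the 10 log2 fold changes were 0.23 in 8P vs 0P and 0.40 in 8ND vs 0ND, where those of all genes were 0.0053 and 0.0035, and 9 of 10 values were above 0 in each comparison, as were 50.7% and 50.6% of all genes. For every one of the 10 the libraries of the 2 doses overlapped, where 2.25% of all genes in 8P vs 0P and 3.94% in 8ND vs 0ND did not overlap.

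Apart from Fut9, the genes with an unadjusted p under 0.05 between the doses were higher on 8 mg. C1galt1 averaged 227 ± 46.0 CPM in 8P and 184 ± 30.1 CPM in 0P (SD, n = 5 and 4), a log2 difference of 0.30 (SE 0.14, edgeR adjusted p = 0.49). It averaged 305 ± 27.6 CPM in 8ND and 231 ± 30.7 CPM in 0ND, a difference of 0.40 (SE 0.14, edgeR adjusted p = 0.31). Galnt3 and Galnt12 were higher in 8ND than in 0ND by 0.40 (SE 0.12, edgeR adjusted p = 0.18) and 0.47 (SE 0.19, edgeR adjusted p = 0.41), and the libraries of the 2 groups overlapped for both genes. Goblet marker sums ran from 12664 to 19769 CPM in 8ND and from 8659 to 10585 CPM in 0ND and did not overlap. Yet none of the 14 goblet markers was called in 8ND vs 0ND, and their median log2 fold change was 0.20. Zg16, Tff3, Bcas1 and Rep15 went the other way, at −0.07, −0.10, −0.18 and −0.51. Mucin gene sums ran from 9138 to 14614 CPM in 8ND and from 6189 to 8657 CPM in 0ND. None of the 8 mucin genes tested was called, and Muc1, Muc3 and Muc13 went the other way, at −1.23, −0.58 and −0.40. Muc2 is in both lists, so the 2 sums are not separate evidence. It averaged 9261 ± 2571 CPM in 8ND and 4163 ± 1150 CPM in 0ND (SD, n = 5 and 4). Its log2 fold change was 1.15 (SE 0.44, edgeR adjusted p = 0.37). Absorptive marker sums averaged 1994 ± 531 CPM in 8ND and 3002 ± 666 CPM in 0ND (SD, n = 5 and 4), and their ranges overlapped. Car1 and Emp1 went the other way, at 0.86 and 1.00, and none of the 10 absorptive markers was called in 8ND vs 0ND. The intervals were narrow for Galnt3 and Galnt4 in 8P vs 0P, −0.14 to 0.34 and −0.09 to 0.40, and wide for St6galnac1, −1.37 to 2.74. In the interaction 0 of 10 were called, as were 0% of all tested genes, and Fut9 alone had an unadjusted p under 0.05.

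Other genes of sugar chain synthesis outside the 10 moved in the same comparisons. The lists below are not limited to mucin chains, and hold enzymes of glycolipids and N-linked chains such as B4galt6 and St6gal1. Beside the list counts below, 13.9% of all tested genes were called higher and 14.3% lower in 8P vs 8ND. In 0P vs 0ND these shares were 15.9% and 15.7%. Of 14 other GalNAc transferases tested, 8 fell and 1 rose in 8P vs 8ND, and 7 fell and 2 rose in 0P vs 0ND, with median log2 fold changes of −1.03 and −0.92. Galnt5 averaged 11.6 ± 4.78 CPM in 8P and 48.3 ± 10.9 CPM in 8ND (SD, n = 5 each), and 14.3 ± 3.70 CPM in 0P and 41.4 ± 5.52 CPM in 0ND (SD, n = 4 each). Its log2 fold changes were −2.07 (SE 0.26) and −1.53 (SE 0.28), with edgeR adjusted p of 2e-05 and 0.00043. Galnt6 fell by 1.18 and 0.99 and Galnt15 by 1.87 and 1.87 on the log2 scale in 8P vs 8ND and 0P vs 0ND, and each had an edgeR adjusted p under 0.05 in both. Exons of Galnt5 and Galnt6 overlap other genes, which makes their counts less certain, and the strand setting of the counting is not given in the sources used here.

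Core and chain extension genes were called in both directions. Of 19 tested, 9 fell and 4 rose in 8P vs 8ND, and 7 fell and 5 rose in 0P vs 0ND, with medians of −0.62 and −0.45. B3galt5, which builds type 1 chains in the colon, averaged 110.1 ± 24.5 CPM in 8P and 338 ± 14.3 CPM in 8ND (SD, n = 5 each). In 0P it averaged 111 ± 44.0 CPM, against 367 ± 74.5 CPM in 0ND (SD, n = 4 each), and the log2 fold changes were −1.62 (SE 0.19) and −1.72 (SE 0.22), both with an edgeR adjusted p under 0.05. B4galnt4, which makes GalNAc-GlcNAc ends, rose by 1.33 (SE 0.21) in 8P vs 8ND and by 2.89 (SE 0.25) in 0P vs 0ND, to 12.9 ± 2.22 CPM in 8P, against 5.07 ± 1.16 CPM in 8ND, and to 21.4 ± 6.01 CPM in 0P, against 2.93 ± 0.655 CPM in 0ND. B4galt6, a lactosylceramide synthase of glycolipids, rose by 0.91 and 1.21. C1galt1c1, the chaperone that C1galt1 needs, is named here after its values were seen. It fell in 8P vs 8ND, with 13.9 ± 1.53 CPM in 8P and 21.9 ± 6.04 CPM in 8ND (SD, n = 5 each, log2 fold change −0.66, edgeR adjusted p = 0.01), and was at −0.30 (edgeR adjusted p = 0.28) in 0P vs 0ND.

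Fucosylation, sialylation, sulfation and sugar supply genes were called only downwards. In fucosylation 7 of 11 fell in 8P vs 8ND and 5 of 11 in 0P vs 0ND (medians −0.68 and −0.85), among them Fut4, another alpha-1,3-fucosyltransferase, by 1.90 and 1.55 on the log2 scale. Fpgt, a fucose salvage enzyme, fell by 0.63 and 0.91, and Tsta3, which makes GDP-fucose, fell by 0.84 in 8P vs 8ND and was at −0.24 (edgeR adjusted p = 0.33) in 0P vs 0ND. The sialylation list, which also holds sialidases such as Neu1, fell in 10 of 19 and 11 of 19 cases (medians −0.58 and −1.08). St6galnac6, which sialylates inner GalNAc or GlcNAc residues, averaged 65.1 ± 13.8 CPM in 8P and 263 ± 16.3 CPM in 8ND (SD, n = 5 each). St6gal1, which sialylates N-linked chains, fell by 1.96 and 1.77, and Neu1, the lysosomal sialidase, by 0.60 and 1.39.

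Sulfation genes fell in 7 of 11 cases in each comparison (medians −0.61 and −0.71). Slc26a2, the sulfate carrier, averaged 128 ± 35.2 CPM in 8P and 495 ± 43.2 CPM in 8ND (SD, n = 5 each), and 131 ± 36.4 CPM in 0P and 953 ± 274 CPM in 0ND (SD, n = 4 each). Chst4, a sulfotransferase for N-acetylglucosamine, fell by 2.18 and 2.14, and Papss1, which activates sulfate, by 0.61 and 0.79. Of 13 sugar supply genes 8 fell in 8P vs 8ND and 7 in 0P vs 0ND (medians −0.57 and −0.37). Gfpt1, the entry enzyme of hexosamine synthesis, fell by 1.63 and 1.66, Uap1 by 1.20 and 1.54, and Slc35a3, a Golgi carrier of UDP-GlcNAc, by 0.63 and 1.15, all with an edgeR adjusted p under 0.05. Exons of Fpgt, St6gal1 and Slc35a3 overlap other genes, so their counts are less certain. None of the genes in these lists was called in either dose comparison. Neu1, which the study singled out from these same libraries, was at −0.79 (SE 0.16, edgeR adjusted p = 0.069) in 8ND vs 0ND. Slc26a2 was at −0.95 there (SE 0.21, edgeR adjusted p = 0.085). The 8ND and 0ND libraries did not overlap for either gene, as for 3.94% of all genes.

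**Figure D5:**
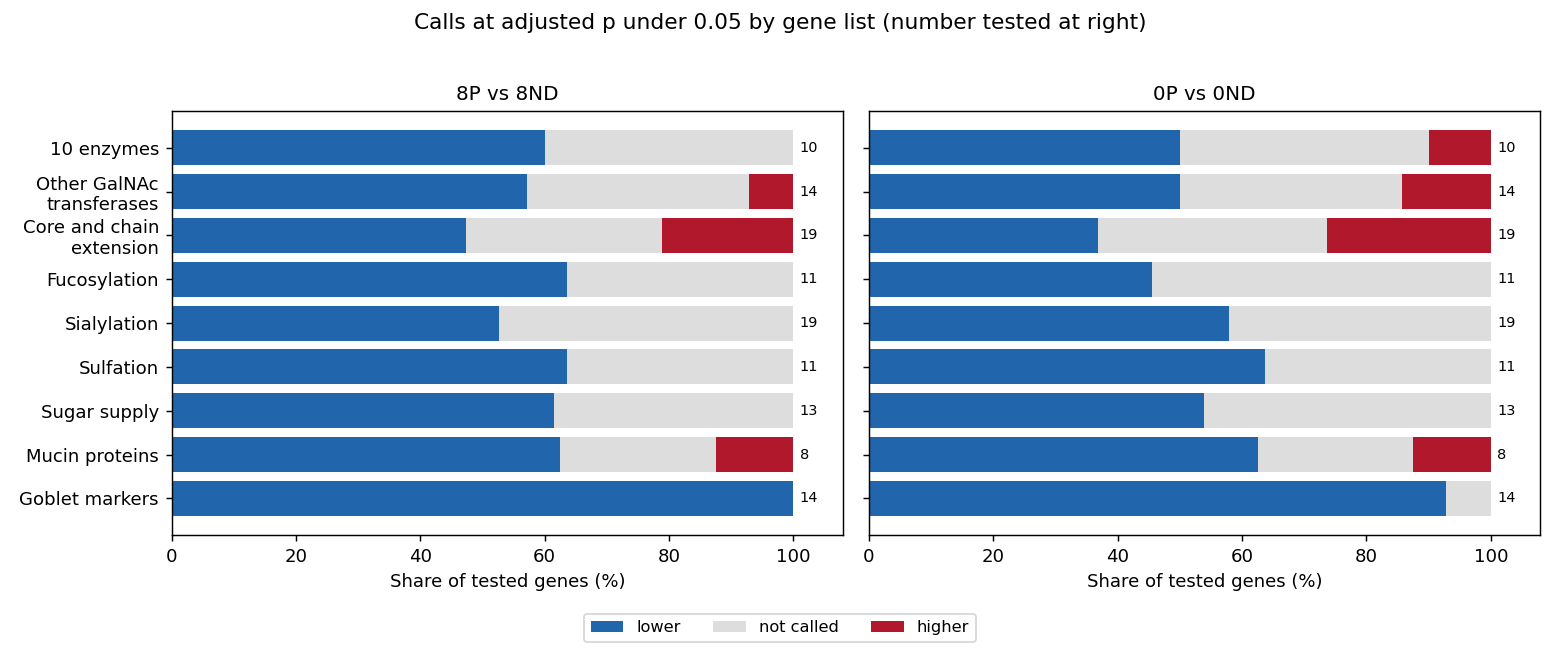
Share of the tested genes of each list (horizontal axes, %) that were lower, not called or higher at an edgeR adjusted p under 0.05, in 8P vs 8ND on the left and 0P vs 0ND on the right, with the number tested beside each bar. The 10 enzymes show 6 lower in 8P vs 8ND and 5 lower with 1 higher in 0P vs 0ND, and goblet markers show 14 and 13 of 14 lower. The sialylation bars also count sialidases.

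The mucin proteins that carry these chains, and goblet cell markers, were lower in the same libraries. Of 8 mucin genes tested 5 fell and 1 rose in each comparison (medians −1.19 in 8P vs 8ND and −1.22 in 0P vs 0ND). Muc3 and Muc3a fell by 3.12 and 2.44 in 8P vs 8ND and by 2.68 and 2.41 in 0P vs 0ND. They are close copies, and reads that fit both may have been set aside as not unique. Muc6, a gastric gland mucin, averaged 80.8 ± 62.5 CPM in 8P and 12.7 ± 9.23 CPM in 8ND (SD, n = 5 each), and 89.0 ± 36.4 CPM in 0P and 1.40 ± 0.925 CPM in 0ND (SD, n = 4 each). Its rises were 2.66 (SE 0.64, edgeR adjusted p = 0.0057) and 5.83 (SE 0.88, edgeR adjusted p = 0.00014).

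Goblet cells are the main source of secreted mucin, and 14 of 14 goblet markers fell in 8P vs 8ND and 13 of 14 in 0P vs 0ND, with medians of −2.10 and −1.72. Their summed level ran from 891 to 4344 CPM in 8P and from 1919 to 3902 CPM in 0P, against 12664 to 19769 CPM in 8ND and 8659 to 10585 CPM in 0ND, and no marker was at 0 in any group. Absorptive colonocyte markers fell as well, 9 of 10 in 8P vs 8ND and 8 of 10 in 0P vs 0ND (medians −2.93 and −2.69). All 6 smooth muscle markers fell in both comparisons, with sums of 256 to 597 CPM in 8P and 357 to 708 CPM in 0P, against 1004 to 1725 CPM in 8ND and 1000 to 2537 CPM in 0ND. Of 9 myeloid markers 2 rose in 8P vs 8ND and 5 in 0P vs 0ND. Epithelium markers fell in 6 of 9 cases and rose in 1 in 8P vs 8ND (median −0.55), and fell in 3 and rose in 1 in 0P vs 0ND (median −0.24). Of 10 T and B cell markers 4 fell in 8P vs 8ND and 3 in 0P vs 0ND (medians −1.42 and −0.82). Of 7 fibroblast markers 1 rose and 1 fell in 8P vs 8ND, and 4 rose and 1 fell in 0P vs 0ND, with sums of 1358 to 1769 CPM in 0P, against 904 to 985 CPM in 0ND. Of all tested genes 28.2% were called in 8P vs 8ND and 31.6% in 0P vs 0ND. The shares of myeloid (22.2%) and fibroblast markers (28.6%) in 8P vs 8ND were near or below that. The same held for T and B cell markers (30%) in 0P vs 0ND.

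Within P and within ND the 10 enzymes were also set against the goblet marker sum, in 20 of the 40 relations. None passed after adjustment over the 40, and the smallest adjusted p was 0.062 for rho (C1galt1 in ND, exact permutation) and 0.11 for r. In ND the goblet sums separated the doses, so the ND relations, that of C1galt1 included, also carry the dose difference. Their coefficients are not given. The part of the other marker shifts in the levels of the 10 enzymes was not tested.

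For the 4 genes called in both dysplasia comparisons, the genes with the most similar pattern were found by the root mean square distance of mean-centred log2 CPM over the 18 libraries. The 11673 candidates had a mean of at least 5 CPM, and unnamed gene models were left out. Esrp1 and Mid2 were the nearest to Galnt4, at distances of 0.131 and 0.134. Slc52a3 and Cptp were the nearest to Fut2 (0.161 and 0.173). Galnt7, another GalNAc transferase that acts on partly glycosylated mucin, and Slc18b1 were the nearest to Galnt12 (0.235 and 0.239), and Sytl4 and Kcnma1 to Gcnt3 (0.243 and 0.331). As background, Esrp1 is an epithelial splicing regulator, Slc52a3 carries riboflavin, and Kcnma1 is a potassium channel. The distance is shorter for genes that vary little, as Galnt4 and Fut2 do, so it was not compared between the 4 genes.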

How the data were processed

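According to the methods, RNA from microdissected areas was made into SMARTer Stranded Pico libraries, sequenced and aligned to mm10 with Bowtie. The deposited files hold raw counts per gene that the authors made with HTSeq, 55453 genes and 5 summary lines per library. Versions of these tools: not given in the sources used here; the same holds for strand use in counting. The summary lines were left out of all totals and tests. Of everything counted, 22.0 to 40.7% fell on no feature and 40.1 to 62.2% was not unique.

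Genes passing filterByExpr with a minimum count of 10 were fitted together for all 18 libraries with group as the only factor (edgeR 4.0.16, R 4.3.3, TMM, robust quasi-likelihood), with Benjamini-Hochberg adjustment over 20787 genes and a threshold of 0.05. The SE is the log2 fold change over the square root of F. Correlations used exact permutation of 362880 pairings. Sums over a list are CPM of total gene counts. The alternatives were DESeq2 1.42.0, limma 3.58.1 (voom), DESeq2 size factors, no filter, only the groups compared, the replicate number as a block, and leaving out libraries. The edgeR script was tested on simulated data. Positions are from GENCODE M21 for mm10, and promoter windows from the RefSeq table, GRCm38.p6.

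All 10 enzymes are named, with up to 3 genes of each pathway list by smallest p and the 2 nearest genes of those called in both dysplasia comparisons. The genes and lists were chosen with earlier results of these data known. No 2 libraries were alike within sampling noise: over 32 pairs within groups the lowest chi-square per gene was 10.4.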

Additional observations from a re-analysis of the deposited data

Results flagged for a closer look

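In 2 of 40 gene and group combinations a single library lay apart from the rest of its group by Dixon's test, and chance alone gives about 1 in 20. B3gnt6 had 9.34 CPM in 0ND 1, where the nearest other 0ND library had 2.01 CPM, a gap of 0.888 of the group's range. Galnt4 had 153 CPM in 8P 3, where the nearest other 8P library had 116 CPM, a gap of 0.713 of the range and just past the critical value.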

How the results depend on the processing

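In every fit that left out 1 library, Fut2, Gcnt3, Galnt4 and Galnt12 stayed called in both dysplasia comparisons, and Fut9 and Galnt3 in 0P vs 0ND. The number of the 10 enzymes called was 4 to 7 in 8P vs 8ND and 6 to 7 in 0P vs 0ND, and 0 in both dose comparisons under all alternatives. Over the 50 values of the 10 enzymes, 801 alternative values kept direction and call, 10 lost the call, 8 gained it and 40 changed sign, and the cause was not tested.

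Counts over all genes moved. In 8ND vs 0ND edgeR called 10 genes, against 41 with no filter, 316 by DESeq2, 4 by limma-voom, 0 without both 8ND 1 and 8ND 2, and 2 to 157 with 1 library left out. In 8P vs 0P it called 0 (2093 with an unadjusted p under 0.05), against 2 with DESeq2 size factors, 2 with no filter, 20 by DESeq2, and 0 to 5 with 1 library left out. In the interaction it called 0, against 1 with no filter, 82 by DESeq2, and 0 to 26.

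The replicate numbers were not taken as pairing the libraries, since only 4 of 9 P and ND pairs had correlated deviations over 0.1 (−0.146 to 0.327). As a hint from the data, 5 of the 9 correlated best with their own number, and 1 of 8 between doses did. With the number as a replicate block in the dose comparisons, 28 genes were called in 8ND vs 0ND and 3 in 8P vs 0P, St6galnac1 changed sign to −0.054 and −0.017, and Fut2 (0.041) and Fut9 (−0.11) changed sign in 8P vs 0P. With dose and number as the replicate block in the dysplasia comparisons, St6galnac1 was called in 8P vs 8ND (−2.01, edgeR adjusted p = 0.00015) and in 0P vs 0ND (−2.12, edgeR adjusted p = 0.00016).

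Other sign changes were Fut2 with no filter (0.013) and Fut9 by limma-voom (−0.048) in 8P vs 0P, and in the interaction Galnt4 (−0.0037) and St6galnac1 (−0.39) by limma-voom and Galnt4 (−0.0017) and St6galnac1 (−0.014) without both 8ND 1 and 8ND 2. With 1 library left out, 8P vs 0P ran from −0.089 to 0.062 for Fut2, −0.30 to 0.28 for Fut9 and −0.21 to 1.39 for B3gnt6. The interaction ran from −1.40 to 0.57 for B3gnt6, −0.26 to 0.46 for Gcnt3, −0.096 to 0.078 for Galnt4 and −0.23 to 0.59 for St6galnac1. B3gnt6 in 8P vs 8ND lost its call with no filter (edgeR adjusted p = 0.088) and C1galt1 without both 8ND 1 and 8ND 2 (edgeR adjusted p = 0.08). B3gnt6 in 0P vs 0ND passed by DESeq2 (adjusted p = 0.020), with only 0P and 0ND fitted (0.049) and without 0ND 4 (0.049). Counts as low as 3 limit B3gnt6 in the P libraries.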
